A study of Drosophila melanogaster with 6 samples.

Results

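The 8 genes described here encode the fly's main basement membrane proteins: the laminin chains LanA, LanB1 and LanB2, the collagen IV chains vkg and Cg25C, the collagen-binding glycoprotein BM-40-SPARC, papilin (Ppn) and perlecan (trol). They were taken by symbol from the 14210 genes listed for each library, and all 8 were among the 7259 genes tested, those whose mean level reached 1 FPKM. FPKM divides the fragments of a gene by transcript length and by library depth, so levels may be compared between genes. Polyadenylated RNA came from Drosophila melanogaster S2 cells, a hemocyte-like embryonic line (hemocytes are the fly's blood cells), in 3 libraries of the wildtype genotype and 3 of CG1091 knockout cells made with CRISPR/Cas9. CG1091 is Tailor, an enzyme that adds uridines to the 3' ends of RNA. The labels do not say whether the knockout cells were 1 clone or whether the wild-type libraries were separate cultures, so p-values reflect how much these libraries differed from each other, and that spread may be technical. No other agent or treatment is named for either group.

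A basement membrane is a thin sheet of matrix on which tissues rest. Laminin, a trimer of an alpha, a beta and a gamma chain, assembles at the cell surface and is bound by integrins, and collagen IV forms a second network that gives the sheet its stiffness. Perlecan, a proteoglycan that carries heparan sulfate, lies between the networks, and SPARC binds collagen IV. In the fly, hemocytes and fat body cells secrete much of this material. Secreted protein was not measured here, and the values are levels of mRNA.

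Recovered fragment totals were 18411809 to 22957816 per library. The edited gene CG1091 had 50.7, 51.2 and 47.7 FPKM in wild type and 22.3, 26.1 and 26.1 FPKM in the knockout, so its mRNA was lower but present. Of 8 hemocyte markers, 6 had a mean of at least 1 FPKM, among them srp, ush and crq, while NimC1 was below 1 FPKM in every library. The summed hemocyte markers were 321.1 to 336.3 FPKM in wild type and 390.4 to 400.0 FPKM in the knockout. Most of that sum was crq, at 217.8 to 229.7 FPKM in wild type and 257.5 to 266.3 FPKM in the knockout. By limma at an adjusted p of 0.05, 5 markers were higher and 1, Pxn, lower, where 30.1% of all tested genes were higher and 32.1% lower. The 5 include the gene He, which passed the filter through its knockout level. Fat body markers summed to at most 0.0880 FPKM, with Lsp1alpha and Lsp2 at 0 in every library, and muscle markers to at most 0.749 FPKM. The summed markers of crystal cells, lamellocytes, neurons, the germ line and ovarian somatic cells reached at most 18.0 FPKM, the highest being those of neurons. The neuron markers elav and brp, at wild-type means of 8.23 and 7.72 FPKM, were above the hemocyte markers Hml, Pxn, NimC1, eater and He. The part of the hemocyte marker shift in the results below was not tested. In bulk RNA, fewer cells of a type and less RNA per cell cannot be told apart.

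In the knockout 5 of the 8 genes fell, 1 rose and 2 did not pass the test. BM-40-SPARC fell to 0.333 of its wild-type level, trol to 0.514, LanB1 to 0.643, LanB2 to 0.661 and LanA to 0.888, whereas Ppn rose 1.75-fold. The collagen IV genes vkg and Cg25C stood at 0.986 and 0.969 of wild type. Calls are those of limma on log2(FPKM + 1) at an adjusted p of 0.05, and with them 62.1% of all tested genes passed, 32.1% lower and 30.1% higher. The share of members called, 6 of 8, is therefore near that background. Falls of at least 1.5-fold were seen in 4 members (BM-40-SPARC, trol, LanB1 and LanB2) and in 5.54% of all tested genes, and falls of at least 2-fold in 1 member (BM-40-SPARC) and in 1.56% of tested genes. By the authors' deposited table, lower levels were called for 4 members and a higher level for 1 at an adjusted p under 0.05, where 36.0% of its genes passed, 18.3% lower and 17.7% higher. The median log2 change was -0.38 over the members and -0.01 over all tested genes. The groups did not overlap in 6 members, 5 of them lower and 1 higher, and in 67.3% of tested genes, 34.5% lower and 32.9% higher. Together the 8 genes made up 0.534%, 0.575% and 0.542% of all FPKM in wild-type libraries and 0.363%, 0.327% and 0.356% in knockout libraries. Their sum was 3609 to 3891 FPKM in wild type and 2143 to 2256 FPKM in the knockout. Most of that drop was BM-40-SPARC alone, whose mean went from 1741 to 579.2 FPKM.

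**Figure D1:**
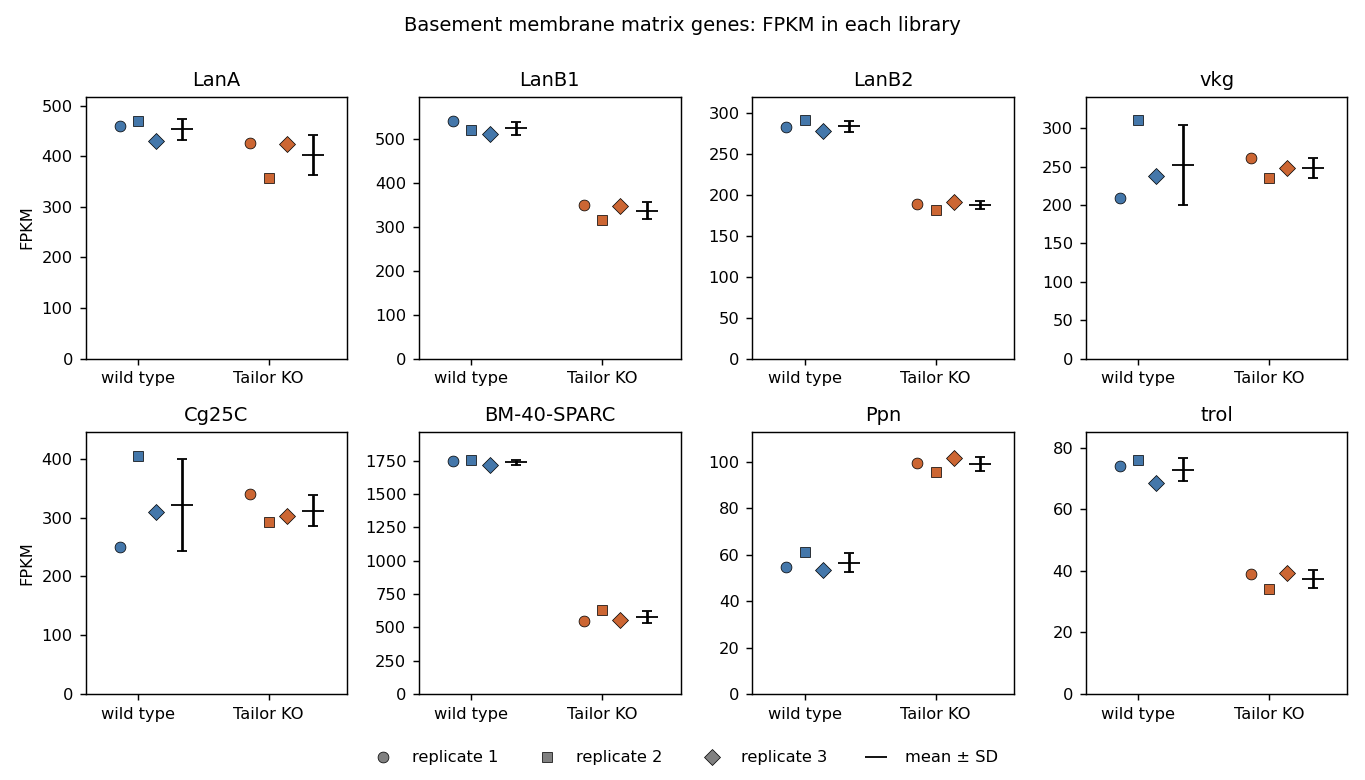
Level in FPKM (y axis, from 0) of each of the 8 genes in the 3 wild-type and the 3 Tailor knockout libraries, with the mean ± SD beside the points and a symbol for each replicate number. The groups stand apart in 6 panels and overlap for vkg and Cg25C, where wild-type replicate 2 is the highest library.

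**Figure D2:**
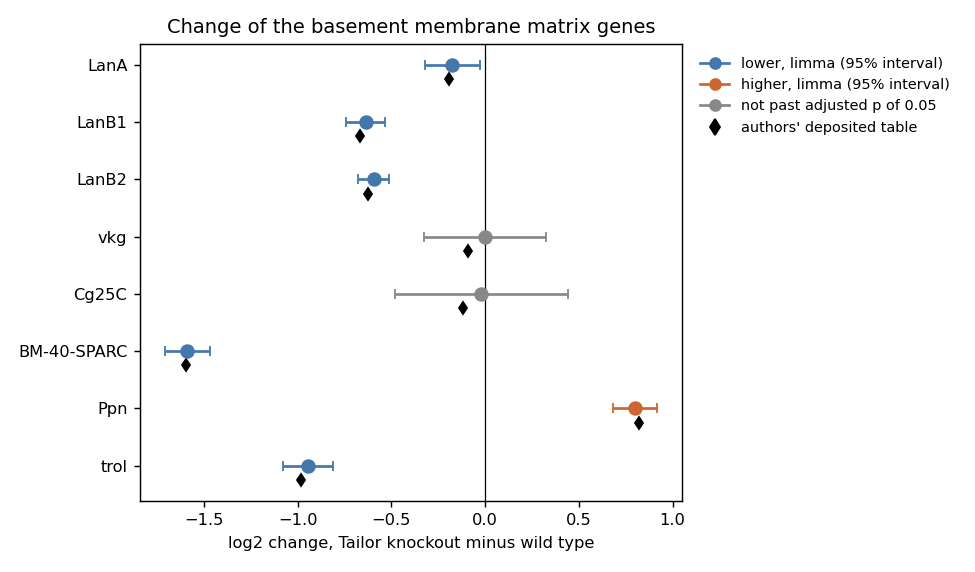
Log2 change, knockout minus wild type (x axis), of each gene with its 95% interval from limma, and the log2 change of the authors' deposited table as a diamond. BM-40-SPARC lies farthest to the left at -1.59, Ppn is the gene to the right at 0.80, and the intervals of vkg and Cg25C include 0.

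The beta and gamma chains of laminin fell by about the same amount, and the alpha chain fell less. LanB1 (FBgn0261800, chromosome 2L, 7811440 to 7820771 in the files' own coordinates) encodes the beta chain. Its levels were 541.8, 521.8 and 511.4 FPKM in wild type and 349.2, 315.6 and 347.9 FPKM in the knockout. Each knockout library lay below each wild-type library. Group means were 525.0 ± 15.5 and 337.5 ± 19.0 FPKM (SD, n = 3 per group), and the log2 change was -0.64 with an SE of 0.047 (limma adjusted p = 7.69e-07).

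LanB2 (FBgn0002528, chromosome 3L, 9608019 to 9617080) encodes the gamma chain. Its levels were 283.1, 291.1 and 277.8 FPKM in wild type and 189.4, 182.0 and 191.6 FPKM in the knockout. Here too the groups were apart, with means of 284.0 ± 6.67 and 187.7 ± 5.01 FPKM (SD, n = 3 per group) and a log2 change of -0.60 with an SE of 0.038 (limma adjusted p = 1.98e-07). For these chains the authors' deposited table lists log2 changes of -0.67 for LanB1 and -0.62 for LanB2.

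LanA (FBgn0002526, chromosome 3L, 6196931 to 6211084) encodes the alpha chain that joins LanB1 and LanB2. Wild-type libraries held 459.8, 470.4 and 430.5 FPKM, and knockout libraries 427.3, 357.3 and 424.0 FPKM. The groups came close to each other: the lowest wild-type library was 430.5 FPKM and the highest knockout library 427.3 FPKM, with knockout replicate 2 well below the other two. Group means were 453.5 ± 20.7 and 402.9 ± 39.5 FPKM (SD, n = 3 per group), for a log2 change of -0.17 with an SE of 0.066 (limma adjusted p = 0.0386). This call is weak. Without knockout replicate 2 the log2 change was -0.09 (adjusted p = 0.0808), without wild-type replicate 1 it was -0.16 (adjusted p = 0.101) and without wild-type replicate 2 it was -0.15 (adjusted p = 0.125). In the authors' deposited table LanA had a log2 change of -0.19 at an adjusted p of 0.0727.

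Ratios taken within a library do not depend on how libraries are scaled against each other. The ratio of LanB1 to LanA was 1.18, 1.11 and 1.19 in wild-type libraries and 0.817, 0.883 and 0.820 in knockout libraries. LanB2 to LanA went from 0.616, 0.619 and 0.645 to 0.443, 0.509 and 0.452. For both ratios the groups were apart, with log2 differences of -0.46 and -0.42, and the exact two-sided permutation test gave p = 0.1, the smallest that 3 libraries against 3 allow (p = 0.2 adjusted over the 4 ratios tested). LanB1 to LanB2 was 1.91, 1.79 and 1.84 in wild type and 1.84, 1.73 and 1.82 in the knockout, a log2 difference of -0.04 with overlapping groups (exact permutation p = 0.5, 0.667 adjusted). Taken from recovered fragments in place of FPKM, that difference was -0.05 and the groups were apart (exact permutation p = 0.1, the smallest possible). Accordingly LanB1 was above LanA in each wild-type library and below it in each knockout library. The fly has another laminin alpha chain, wing blister (wb), which was far lower than LanA at 8.64, 9.68 and 9.03 FPKM in wild type and fell to 6.72, 5.85 and 6.75 FPKM (log2 -0.44, limma adjusted p = 0.000388).

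**Figure D3:**
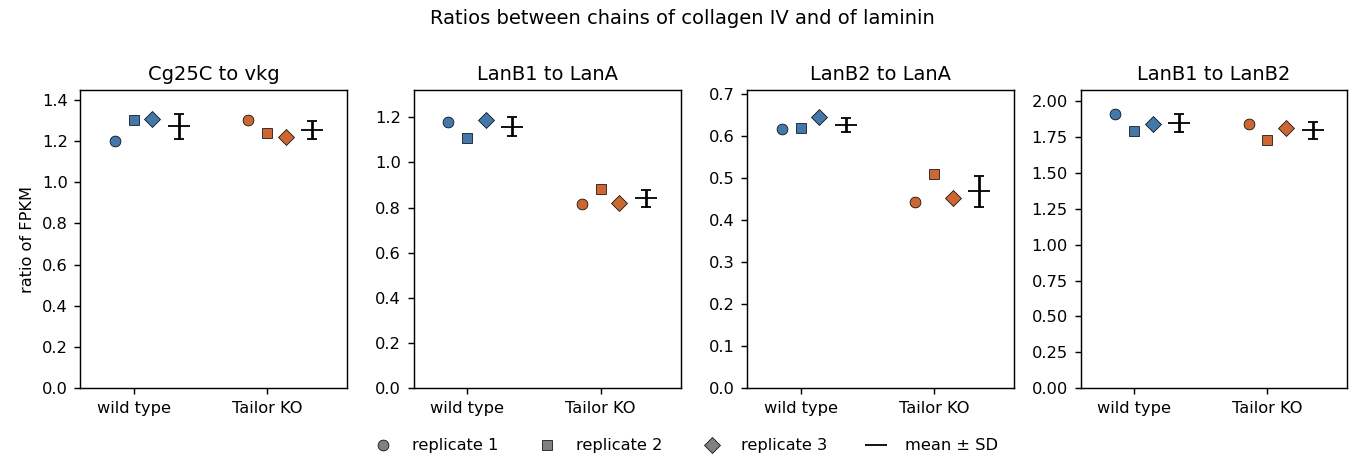
Ratio of FPKM between chains (y axis, from 0) in each library, by group, with mean ± SD. LanB1 to LanA and LanB2 to LanA are lower in every knockout library, while Cg25C to vkg and LanB1 to LanB2 overlap between the groups.

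The collagen IV genes differed more among wild-type libraries than between the groups. The gene vkg (viking, FBgn0016075, chromosome 2L, 5012144 to 5027412) encodes the alpha 2 chain of collagen IV. It was listed at 208.7, 310.4 and 237.3 FPKM in wild type and at 261.6, 235.5 and 248.8 FPKM in the knockout. All 3 knockout libraries lay inside the wild-type range.

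Cg25C (FBgn0000299, chromosome 2L, 5029615 to 5037114), known today as Col4a1, encodes the alpha 1 chain. Its levels were 250.5, 404.8 and 310.4 FPKM in wild type and 341.0, 291.9 and 303.3 FPKM in the knockout, so the groups overlapped again. For both genes wild-type replicate 2 was the highest and wild-type replicate 1 the lowest of the 6 libraries, 1.49-fold apart for vkg and 1.62-fold for Cg25C. Their wild-type SD on the log2 scale, 0.291 and 0.346, was larger than that of 98.6% and 99.3% of tested genes, whose median was 0.0646. BM-40-SPARC, in the same 3 libraries, had an SD of 0.0161.

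Group means were 252.1 ± 52.4 and 248.6 ± 13.0 FPKM for vkg and 321.9 ± 77.8 and 312.1 ± 25.7 FPKM for Cg25C (SD, n = 3 per group). The log2 change was 0.00 for vkg, with a 95% interval from -0.33 to 0.32 and a limma adjusted p = 0.994. For Cg25C it was -0.02, with an interval from -0.48 to 0.44 and an adjusted p = 0.934. Changes of a size inside those intervals were not detectable with these libraries. The sign depended on the wild-type libraries: without replicate 2 the log2 changes were 0.16 for vkg and 0.16 for Cg25C (adjusted p = 0.0580 and 0.154), and without replicate 1 they were -0.13 and -0.19 (adjusted p = 0.283 and 0.150). The authors' deposited table lists -0.09 and -0.12, at adjusted p of 0.843 and 0.822.

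The genes for the collagen IV chains are neighbours, 2202 bases apart in the files' coordinates, and they point away from each other by the strands of the BDGP6 annotation. They varied together: among the other 7258 tested genes, the profile of log2 levels closest to vkg was that of Cg25C, and the closest to Cg25C was that of vkg. The ratio of Cg25C to vkg was 1.20, 1.30 and 1.31 in wild-type libraries and 1.30, 1.24 and 1.22 in knockout libraries. These ratios overlapped (log2 difference -0.02, exact permutation p = 0.8, 0.8 adjusted).

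BM-40-SPARC was the member with the highest level and the one that fell most. The gene (FBgn0026562, chromosome 3R, 22694960 to 22697738), now named SPARC, encodes a secreted glycoprotein that binds collagen IV and calcium, and in fly larvae its loss is known to disturb the collagen IV of basement membranes. It stood at 1747, 1756 and 1719 FPKM in wild type and at 548.9, 630.8 and 557.8 FPKM in the knockout. The wild-type libraries were tightly grouped and every knockout library was far below them, with knockout replicate 2 the highest of the 3. Group means of 1741 ± 19.3 and 579.2 ± 44.9 FPKM (SD, n = 3 per group) lay 3.01-fold apart, and the log2 change was -1.59 with an SE of 0.055 (limma adjusted p = 1.34e-09). Among the 2327 genes called lower, it had the 26th largest fall, and it moved from rank 85 of all listed genes by mean level to rank 146. The authors' deposited table gives normalised counts of 42315 and 13992, a fold of 3.02.

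Perlecan mRNA fell to about 0.514 of its wild-type level. The gene trol (terribly reduced optic lobes, FBgn0261451, chromosome X, 2364493 to 2439423), listed with 18 transcripts, had levels of 74.2, 75.9 and 68.7 FPKM in wild type. Knockout libraries held 38.9, 34.1 and 39.3 FPKM, all of them below the lowest wild-type value. Means of 72.9 ± 3.75 and 37.5 ± 2.91 FPKM (SD, n = 3 per group) gave a log2 change of -0.94 with an SE of 0.061 (limma adjusted p = 2.43e-07). The gene-level value does not show which of the transcripts fell.

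Papilin was the member that rose. Ppn (FBgn0003137, chromosome 3R, 24346387 to 24366053) encodes a large matrix glycoprotein related to ADAMTS proteases, which it is known to inhibit. Its levels were 54.8, 61.1 and 53.6 FPKM in wild type and 99.6, 95.7 and 101.8 FPKM in the knockout, with no overlap. From a mean of 56.5 ± 4.05 FPKM it rose to 99.0 ± 3.07 FPKM (SD, n = 3 per group), by 0.80 on the log2 scale with an SE of 0.053 (limma adjusted p = 3.06e-07). The deposited tables mark the estimate of Ppn as FAIL in 3 of the 6 libraries, namely wild-type replicates 2 and 3 and knockout replicate 1. FAIL is a status that Cufflinks gives when its estimate could not be completed, and 0.937% of tested genes carry it in at least 1 library. The marked values lay beside the unmarked ones of their group, which were 54.8 FPKM in wild type and 95.7 and 101.8 FPKM in the knockout. With the marked values treated as missing, which leaves 1 wild-type and 2 knockout libraries, the log2 difference was 0.84. The lone wild-type library has no spread of its own, so that value is given without a test. The authors' deposited table lists normalised counts of 10658 in wild type and 18816 in the knockout for Ppn, a log2 change of 0.82 (adjusted p = 6.62e-32).

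The order of the genes by level changed with these shifts. In wild type it ran BM-40-SPARC, LanB1, LanA, Cg25C, LanB2, vkg, trol and Ppn. Cg25C and LanB2, and LanB2 and vkg, overlapped in their library ranges there, and the other neighbours did not. In the knockout the order was BM-40-SPARC, LanA, LanB1, Cg25C, vkg, LanB2, Ppn and trol, and among neighbours LanB1 and Cg25C overlapped. LanA and LanB1 thus changed places, as did vkg and LanB2, and Ppn and trol. Counting error was small throughout, at most 1.04% in any library whose estimate was not marked FAIL, on 9260 to 124882 recovered fragments per gene.

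Exon length moved with the group difference. Tested genes were put into 10 groups by exon length, and the median log2 change was -0.20 in the group of shortest genes and 0.11 in that of longest genes. BM-40-SPARC, at 1201 bases, lay in the third group from the short end (median -0.10), and the other 7 members, at 5916 to 20674 bases, all lay in the longest group. In that longest group, knockout replicate 2 lay 0.07 below the knockout mean on the log2 scale (median), and wild-type replicate 2 lay 0.05 above the wild-type mean. Wild-type replicate 1 lay 0.05 below the wild-type mean. With the trend on length removed within each library, LanA had a log2 change of -0.31 (limma adjusted p = 0.000172), 1.78 times its size without that step. BM-40-SPARC then stood at -1.49, LanB1 at -0.74, LanB2 at -0.70, trol at -1.10 and Ppn at 0.67, and vkg and Cg25C at -0.11 and -0.13 (adjusted p = 0.425 and 0.527).

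**Figure D4:**
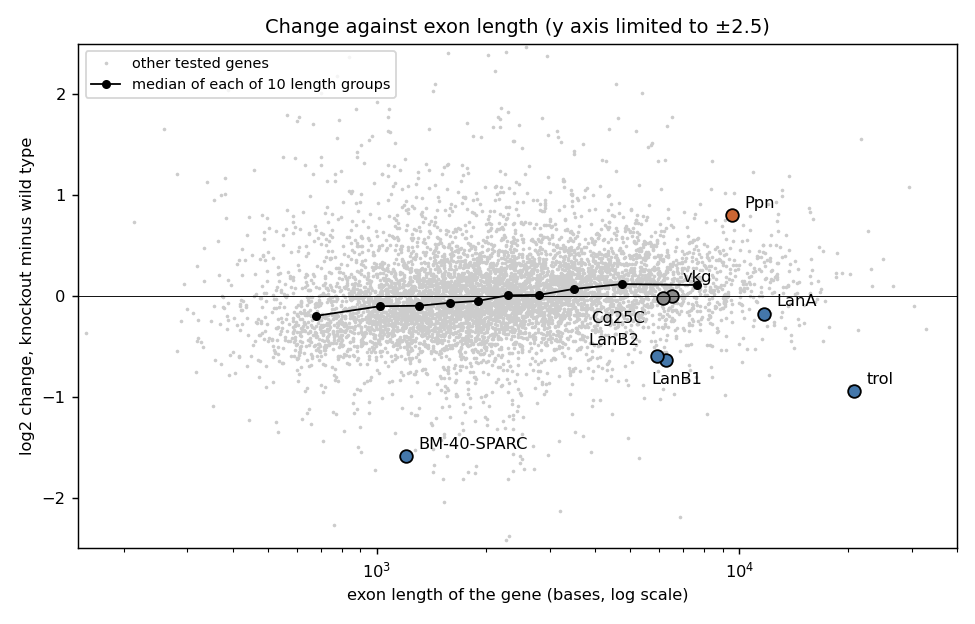
Log2 change, knockout minus wild type (y axis), against exon length in bases (x axis, log scale) for the tested genes with a known length (grey), with the median of each of 10 groups of genes by length (black line) and the 8 members marked. The line runs from -0.20 at the short end to 0.11 at the long end, and 7 members lie at its long end. Of these Ppn is above it, and LanA, LanB1, LanB2, trol, vkg and Cg25C are below it, with vkg and Cg25C the closest.

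Genes that make, bind or remodel the matrix moved both ways. Of 32 such genes in 5 lists, 23 were tested: 8 rose, 5 fell and 10 did not pass, against the 62.1% of all tested genes that were called. The median log2 change of the 23 genes was 0.08. With the length trend removed 7 rose and 9 fell, so some genes that did not pass here passed there. Among 6 other matrix genes, 2 fell, 1 rose, 1 did not pass and 2, nidogen (Ndg) and multiplexin (Mp), were below the filter at means of 0.772 and 0.216 FPKM in wild type. Pxn, the peroxidasin that crosslinks collagen IV, fell from 3.32, 3.12 and 2.93 FPKM to 1.67, 1.39 and 1.35 FPKM (log2 -0.74, limma adjusted p = 6.27e-05). The size moved with the pseudocount: the log2 change of Pxn was -0.33 with a pseudocount of 5, -1.04 with 0.1 and -1.12 in the authors' deposited table. The integrin ligand gene Tig (tiggrin) rose from 130.6 ± 8.32 to 145.5 ± 9.62 FPKM (SD, n = 3 per group; log2 0.15, limma adjusted p = 0.0355), with overlapping groups. Its call was lost in 10 of 20 alternatives, among them limma with the replicate number as a block (adjusted p = 0.0516) and the authors' deposited table (adjusted p = 0.187). With the length trend removed, the log2 change of Tig was 0.04 (limma adjusted p = 0.388).

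The genes for making and secreting collagen differed by small amounts. Of 8 tested, 3 rose, 1 fell and 4 did not pass, where 30.1% of all tested genes rose and 32.1% fell. Their median log2 change was 0.09. The prolyl 4-hydroxylase gene PH4alphaEFB, whose product stabilises the collagen helix, stood at 272.6 ± 6.82 FPKM in wild type and 270.8 ± 2.38 FPKM in the knockout (SD, n = 3 per group; log2 -0.01, 95% interval -0.09 to 0.07). Plod, the lysyl hydroxylase gene, rose from 52.9 ± 1.05 to 61.3 ± 0.996 FPKM (log2 0.21, limma adjusted p = 0.000943). Sar1 and Sec23 encode parts of the COPII coat that carries cargo out of the endoplasmic reticulum, and they moved in opposite directions, by log2 -0.16 and 0.16 (limma adjusted p = 0.00319 and 0.00596). Tango1, which loads collagen into that carrier, had a log2 change of 0.16 (limma adjusted p = 0.0307), a call lost in 8 of 20 alternatives. With the length trend removed, the log2 change of Tango1 was 0.06 (limma adjusted p = 0.304).

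Calls among receptors and surface proteoglycans went both ways, as they did over all tested genes (30.1% higher and 32.1% lower). Of 8 receptor genes 5 were tested: mys and mew fell, scb rose and Dg and Lar did not pass. The genes if, betaInt-nu and Ddr were below the filter. Among them betaInt-nu, an integrin beta chain gene, was listed at 0.337, 0.540 and 0.332 FPKM in wild type and at 1.40, 1.07 and 1.66 FPKM in the knockout, with no overlap, and the authors' deposited table gives it a log2 change of 1.75 (adjusted p = 2.57e-09). The integrin beta chain gene mys went from 316.1 ± 9.90 to 283.2 ± 2.86 FPKM, and mew, the alpha chain of a laminin-binding integrin, from 3.19 ± 0.0605 to 1.99 ± 0.112 FPKM (SD, n = 3 per group; limma adjusted p = 0.00336 and 0.000548). The gene scb, another integrin alpha chain, rose from 1.72, 1.88 and 1.98 FPKM to 3.43, 3.34 and 3.52 FPKM (log2 0.63, limma adjusted p = 9.17e-05). For scb too the size moved with the pseudocount, from 0.30 at 5 to 0.85 at 0.1 on the log2 scale, and for mew from -0.23 to -0.65. The authors' deposited table lists 0.87 for scb and -0.67 for mew. Dystroglycan (Dg), a receptor of laminin and perlecan, stood at 101.8 ± 1.31 and 99.9 ± 4.99 FPKM (log2 -0.03, 95% interval -0.13 to 0.07). Of the 3 heparan sulfate proteoglycans of the cell surface, the glypican gene dlp rose from 7.47 ± 0.516 to 11.5 ± 0.560 FPKM (log2 0.56, limma adjusted p = 3.85e-05), the syndecan gene Sdc rose by log2 0.17 (adjusted p = 0.0113), and dally did not pass. The Sdc call was lost with the length trend removed (adjusted p = 0.137) and in the authors' deposited table (adjusted p = 0.154).

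Of 7 remodelling genes, 3 were tested. Mmp1, a matrix metalloproteinase gene, stood at 57.1, 62.0 and 62.9 FPKM in wild type and at 97.0, 94.2 and 95.2 FPKM in the knockout, with no overlap (log2 0.65, SE 0.045, limma adjusted p = 4.94e-07). Its inhibitor gene Timp was low, at 1.27 ± 0.385 and 1.81 ± 0.214 FPKM (SD, n = 3 per group), and did not pass (adjusted p = 0.0544). AdamTS-A, listed as CG14869, did not pass either (log2 -0.05). The lysyl oxidase genes lox and lox2, Mmp2 and stl were below the filter. For Mmp2, another matrix metalloproteinase gene, the authors' deposited table lists a log2 change of 0.73 (adjusted p = 0.00123).

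**Figure D5:**
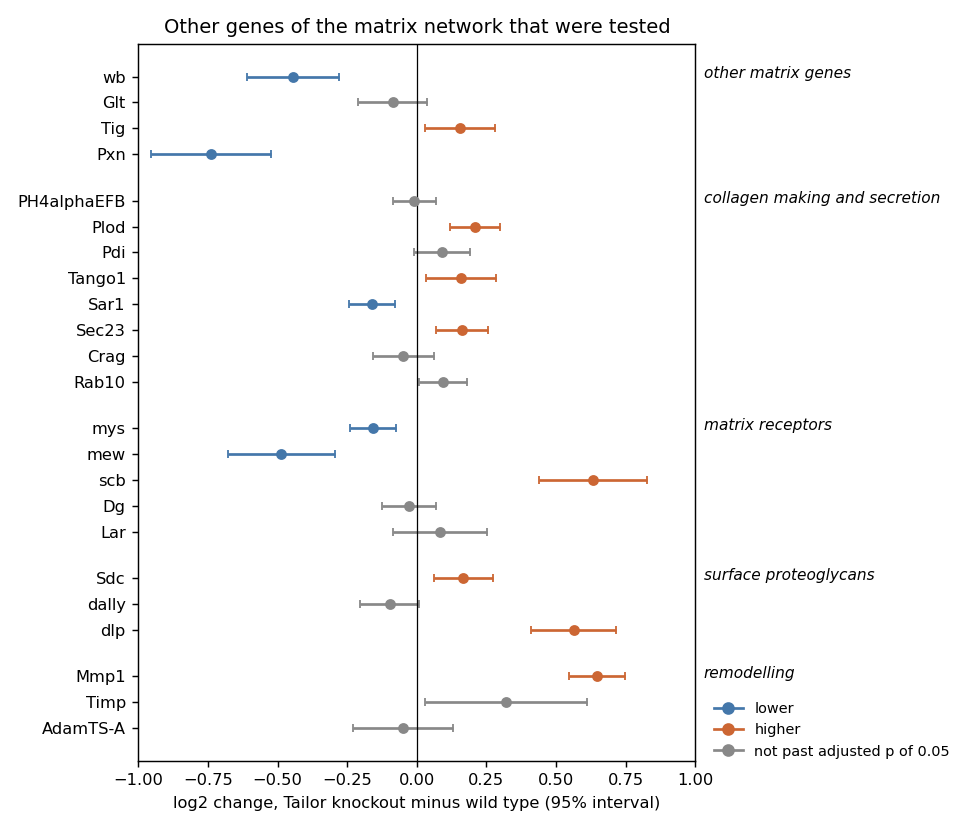
Log2 change, knockout minus wild type (x axis), with 95% intervals from limma for the 23 tested genes of the 5 lists, grouped by role. With the pseudocount of 1 used here, Mmp1, scb and dlp lie farthest to the right, at 0.65, 0.63 and 0.56, and Pxn, mew and wb farthest to the left, at -0.74, -0.49 and -0.44.

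For each member the tested gene outside the 8 with the nearest profile was taken, by Euclidean distance between log2(FPKM + 1) levels over the 6 libraries after the wild-type mean was subtracted. For BM-40-SPARC this was CG34232, which went from 81.5 to 27.3 FPKM (distance 0.101), and for trol it was eIF2B-epsilon, from 54.0 to 28.0 FPKM (distance 0.139). The nearest to LanA was Mtor (0.0516), to LanB1 CG15908 (0.0362), to LanB2 CG31145 (0.0513) and to Ppn Abl (0.0496). For vkg and Cg25C the nearest outside genes were CG31710 and CG14817, at distances of 0.189 and 0.255, farther than vkg and Cg25C were from each other (0.126).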

How the data were processed

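Polyadenylated RNA of 6 libraries (3 wild type, 3 Tailor knockout, grouped by title) was sequenced with a directional kit, per the labels' protocols. Per the file headers, the deposited gene tables hold FPKM with a confidence interval and a status in Cufflinks format. A comparison table deposited by the authors holds group means of normalised counts (a signal), their fold ratio, log2 of it and p-values with DESeq column names. Its log2 values are wild type over knockout, and the sign was turned here. The submitters' processing notes name DESeq 1.10.1, HTSeq 0.6.1p1, Cufflinks 1.3.0, TopHat 1.4.1 and BWA 0.6.1, with no role for any. The files' genome build is not given in the sources used. Loci are written 1-based.

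Log2(FPKM + 1) of genes whose mean reached 1 FPKM was fitted with limma 3.58.1 in R 4.3.3 (eBayes, trend and robust) and p-values were adjusted by Benjamini-Hochberg over all 7259 genes. The fit was also run on simulated data with independent normal noise, few changed genes and no length trend. Those settings differ from the data, so that run does not show how reliable the calls here are. Fragment numbers, (2 FPKM / (upper bound - FPKM)) squared, were within 0.02 of a whole number for 92.6% to 93.1% of values under 30 in genes with 1 transcript, and are effective numbers otherwise. Errors from them cover counting alone. Exon lengths and strands came from the BDGP6 annotation by gene identifier, or by symbol (LanB2 and trol among the members), for 97.5% of tested genes. Figures used matplotlib 3.10.9.

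The members and lists were chosen with earlier results of these data known. Named genes are the 8 members, CG1091, up to 4 called genes by smallest p of each of 5 lists, and the nearest profile of each member. Ndg, Mp, PH4alphaEFB, Dg, Lar, dally, Timp, AdamTS-A, lox, lox2, Mmp2, stl, if, betaInt-nu and Ddr, list members outside that rule, were named after their values were seen, as were Glt, Pdi, Crag and Rab10 in a figure. No other listed gene overlaps a member's span. Alternatives were other pseudocounts, filters, scalings and variance settings, removal of the length trend, a replicate block, leaving out each library, limma-voom on recovered fragments, genes with status OK, and the deposited table. Setting FAIL values to missing was added after seeing the data. No sequence of the members is given, because no sequence table was used here.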

Additional observations from a re-analysis of the deposited data

How the results depend on the processing

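The falls of BM-40-SPARC, LanB1, LanB2 and trol kept their direction and passed in all 20 alternatives, and the rise of Ppn did in 17 of the 18 that gave it a value. The other one, with values marked FAIL missing, left 1 wild-type library, for which limma assumes the spread of the other libraries and genes, and is given as a value only (0.84). Of the 17, all but the deposited table used Ppn values marked FAIL. The log2 change ranged from -1.65 to -1.49 for BM-40-SPARC, from -1.10 to -0.88 for trol and from 0.67 to 0.86 for Ppn. LanA lost its call in 6 of 20 alternatives, which besides those given above were no filter (adjusted p = 0.102) and eBayes without trend and robust settings (adjusted p = 0.0850). The number of members called was 5 or 6 and the number called lower 4 or 5. The number called higher was 0 with limma-voom on recovered fragments and with status OK in all libraries, because both leave out Ppn. The number of network genes called lower was 3 with a filter at 5 FPKM (fewer genes tested), 9 with the length trend removed and 8 with the replicate block and the length trend removed, against 5. The cause of the last pair was not tested further. The sign of vkg turned to 0.049 with quantile normalization, and over the libraries left out it ranged from -0.13 to 0.16. For Cg25C that range was -0.19 to 0.16, and without knockout replicate 2 the values were 0.04 for vkg and 0.03 for Cg25C. Leaving out 1 library moved the log2 difference in the ratio of Cg25C to vkg between -0.059 and 0.0026. It was 0.00052 without wild-type replicate 2 and 0.0014 without knockout replicate 3.

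Same-numbered libraries of the groups did not deviate together (correlations -0.0495, 0.00286 and -0.0320 over 7259 genes). No pairing by number was seen, but these correlations cannot exclude one, because each deviation is taken from a mean of 3 libraries. With the replicate block 6 members, 13 network genes and 4393 of all genes were called, and no member's call changed, while Tig lost its call (adjusted p = 0.0516). The sign-flip test of the ratios by replicate number cannot go below an exact p = 0.25. Counting error was at most 1.04% for the members and was not obtained for the 3 Ppn estimates marked FAIL.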
